A study of Drosophila melanogaster with 4 samples.

Results

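The insect cuticle is an extracellular layer of chitin fibres and proteins that epidermal cells secrete on the body surface. Its chitin-binding proteins mostly belong to the CPR family, named for the Rebers and Riddiford consensus, a conserved chitin-binding stretch, and different members are deposited at different stages and in different body parts. The data on 8 Drosophila genes that encode cuticle proteins were examined. They are the adult cuticle protein genes Acp1 and Acp65Aa, the CPR gene Cpr100A, and Cpr47Ea, Cpr47Eb, Cpr47Ec, Cpr47Ed and Cpr47Ef, which are CPR genes that neighbour each other. The probes were taken by their listed transcript identifiers, 1 per gene, out of 25885 different identifiers on the array. The 8 genes are covered by 11 probes of 32162. The genes were selected with their difference between genotypes already known, so every value given for that difference below is a description, and no test is attached to it.

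RNA came from virgin female flies that were 5 days old. Control flies were w[1118], and dSETD3 KO flies (w[1118];;CG32732-/-) carried the knockout of CG32732, the fly homolog of the methyltransferase SETD3. In the knockout allele the first exon is replaced by a dsRED expression cassette. The allele was backcrossed to w[1118], the arrays were made from 1 knockout line, and both genotypes carry the white mutation of w[1118]. There were 4 Agilent 1-colour arrays, 2 of each genotype, and the replicates are labelled as biological.

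A probe was called well above background on an array when at least 0.5 of its spots carried that flag. The lowest spot signal with the flag was between 12.2 and 13.9 on the 4 arrays. The share of probes with this call ran from 63.6% to 66.8% per array. Signals are given as the scanner software corrected them, in arbitrary units and not scaled between arrays, and changes are differences of log2 signals set relative to each array's 75th percentile. That percentile corresponded to 1630 and 1766 for control flies and to 1662 and 1179 for dSETD3 KO flies. Because each probe has its own brightness, levels are compared between arrays and not between probes. All 4 arrays lay on 1 slide, with the genotypes at different positions, so position and genotype cannot be told apart. CG32732 itself gave 7810 and 7999 on the control arrays and 9.87 and 4.99 on the dSETD3 KO arrays at 1 probe, and 1090 and 1150 against 3.47 and 3.50 at the other, so the arrays followed their labels. A filter kept the 21082 probes called well above background in both replicates of either genotype, and of these limma called 3497 lower and 801 higher in dSETD3 KO flies at a Benjamini-Hochberg adjusted p under 0.05. This split depended on the scaling of the arrays, with 2443 lower and 1411 higher after quantile normalization, 2521 and 1495 after cyclic loess, and 2613 and 8296 after centring on the array median, which moved the median change of all tested probes from 0.02 to 0.32.

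Of the 8 cuticle genes, 5 were detected and 3 were not. Acp1, Acp65Aa, Cpr100A, Cpr47Ea and Cpr47Ef were well above background on both control arrays at each of their 7 probes, and all 7 probes had lower signals on both dSETD3 KO arrays than on both control arrays. Of the 7, 5 probes of 4 genes were well above background on all 4 arrays, and 2 probes passed only through the control arrays, namely the Acp1 probe and 1 of the Cpr47Ea probes. Both dSETD3 KO arrays lay below both control arrays for 37.2% of all tested probes, and a change of at least 2-fold downward, which all 7 cuticle probes had, was found for 5.38%. After median centring the changes of both Cpr47Ef probes were under 2-fold, at -0.96 and -0.91 on the log2 scale, and 1 of them was at -0.94 without control 2. Because the genes were selected on this contrast, nothing is read from the difference between these shares. RNA came from whole flies, so that fewer cells that make a transcript and less transcript per cell cannot be told apart.

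**Figure D1:**
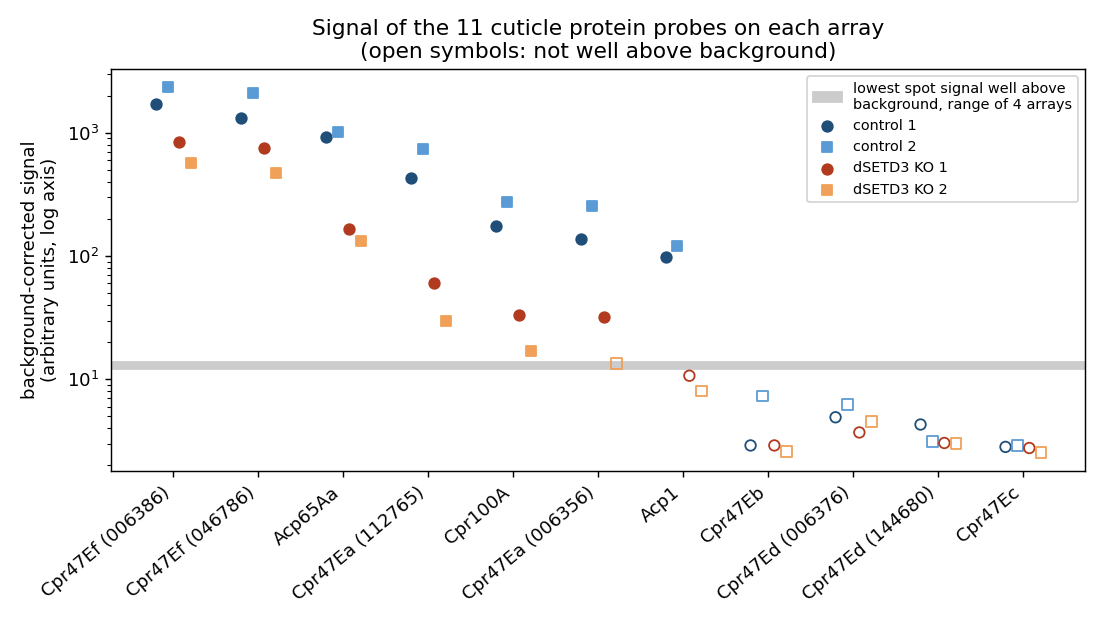
Background-corrected signal (arbitrary units, log axis) of each of the 11 cuticle protein probes on each of the 4 arrays, with the last 6 digits of the probe name where a gene has more than 1 probe. Filled points are well above background and open points are not, and the grey band spans the lowest flagged signals of 12.2 to 13.9; the 7 probes on the left separate the genotypes and the 4 on the right lie below the band on every array.

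Acp1 and Acp65Aa are the 2 genes of the set that are named for the adult cuticle. Acp1 lies on chromosome arm 2L and has 1 probe (A_09_P030321, transcript FBtr0079500). Its signals were 98.8 and 122 on the control arrays and 10.7 and 8.04 on the dSETD3 KO arrays. The probe was well above background on both control arrays and on neither dSETD3 KO array, so only a bound can be given for the knockout. With the dim side raised to the lowest flagged signal of each array, Acp1 was at least 7.08-fold lower in dSETD3 KO flies. This bound holds only for signals as the scanner software corrected them. The log2 change was -1.08 under normexp background correction and -1.41 from the deposited values. The measured log2 change was -3.29. The control arrays differed by 0.19 on the log2 scale. The dSETD3 KO arrays differed by 0.08, but neither of these signals was well above background.

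Acp65Aa is a CPR family gene on chromosome arm 3L (A_09_P206385, FBtr0077021). It was well above background on all 4 arrays, with signals of 930 and 1023 on the control arrays and 167 and 132 on the dSETD3 KO arrays. The log2 change was -2.44 (standard error 0.08, n = 2 arrays per genotype), or 5.41-fold lower. After scaling, the 2 control arrays differed by 0.02 and the dSETD3 KO arrays by 0.16, and the lowest control value exceeded the highest dSETD3 KO value by 2.35. A further probe, A_09_P032626, is listed under the cDNA clone name RH61147, which RefSeq gives as a synonym of Acp65Aa, and was not part of the set. Its signals were 799 and 875 on the control arrays and 129 and 109 on the dSETD3 KO arrays, a log2 change of -2.54 (standard error 0.13). The clone probe and the transcript probe thus gave changes of 5.80-fold and 5.41-fold for the same gene.

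Cpr100A, on chromosome arm 3R, encodes another CPR protein and has 1 probe that was spotted in duplicate (A_09_P061501, FBtr0085710). Its signals were 175 and 272 on the control arrays and 33.2 and 16.8 on the dSETD3 KO arrays, all well above background. The duplicate spots differed little beside the difference between arrays, with 171 and 180 on control 1 and 35.6 and 31.0 on dSETD3 KO 1. The log2 change was -2.93 (standard error 0.36), or 7.62-fold lower, and the gap between the lowest control and the highest dSETD3 KO value was 2.43. The larger error came from both genotypes, since the control arrays differed by 0.52 and the dSETD3 KO arrays by -0.49 (array 2 minus array 1).

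The 5 Cpr47E genes of the set lie next to each other on chromosome arm 2R. In the RefSeq annotation the stretch from Cpr47Ea to Cpr47Eg holds 9 protein-coding genes in the order Cpr47Ea, Cpr47Eb, CG13223, Cpr47Ec, Cpr47Ed, Cpr47Ee, Cpr47Ef, TpnC47D and Cpr47Eg. Of these, 7 are CPR genes, and Cpr47Ee and Cpr47Eg were not analysed here. The outer genes of the set, Cpr47Ea and Cpr47Ef, were detected, and the 3 genes of the set that lie between them were not.

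Cpr47Ea had the lowest change of the set as measured at 1 of its 2 probes (both listed under FBtr0088190). Acp1, for which only a bound can be given, could not be ranked against it. Probe A_09_P112765 gave 433 and 744 on the control arrays and 60.2 and 29.7 on the dSETD3 KO arrays, all well above background. This was a log2 change of -3.47 (standard error 0.42), or 11.1-fold lower. Probe A_09_P006356 gave 138 and 253 on the control arrays against 31.8 and 13.4, and the last of these was not well above background. Its log2 change as measured was -2.90, with only 1 of the 2 dSETD3 KO arrays well above background. Both probes separated the genotypes, by 2.87 and 2.14 on the log2 scale, and both had the arrays of each genotype further apart than any other detected probe of the set.

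Cpr47Ef was the detected gene with the smallest change under the background correction used (2 probes, FBtr0302718). Under normexp correction Acp1 (-1.08) and 1 Cpr47Ea probe (-1.05) changed less than either Cpr47Ef probe (-1.32 and -1.15). Probe A_09_P006386 gave 1710 and 2363 on the control arrays and 841 and 569 on the dSETD3 KO arrays, a log2 change of -1.26 (standard error 0.18). Probe A_09_P046786 gave 1330 and 2110 against 757 and 468, a log2 change of -1.22 (standard error 0.29). The 2 probes thus agreed on a change of 2.40-fold and 2.32-fold, and all 4 arrays were well above background at both. The gap between genotypes was 1.05 and 0.84 on the log2 scale, narrower than for the other detected genes.

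Cpr47Eb, Cpr47Ec and Cpr47Ed, also CPR genes, were not well above background on any of the 4 arrays. Cpr47Eb (A_09_P006361, FBtr0088112) gave 2.91 and 7.35 on the control arrays and 2.91 and 2.60 on the dSETD3 KO arrays. Cpr47Ec (A_09_P006371, FBtr0088189) gave 2.83 and 2.90 against 2.77 and 2.55. The probes of Cpr47Ed (FBtr0088188) gave 4.92 and 6.27 against 3.71 and 4.57 (A_09_P006376) and 4.30 and 3.12 against 3.04 and 3.03 (A_09_P144680). Every one of these signals was under the lowest flagged signal of its array, so these 4 probes gave no fold change in either direction. CG13223, which lies between Cpr47Eb and Cpr47Ec, gave 2.88 and 2.91 on the control arrays and 2.83 and 5.73 on the dSETD3 KO arrays, and was called well above background on dSETD3 KO 2 alone. Its mean there was under the lowest flagged signal of that array (12.2), so that only part of its spots can have carried the flag.

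The arrays of 1 genotype were not equally alike for the 5 detected genes. Control 2 exceeded control 1 at all 7 probes after scaling, and dSETD3 KO 2 was below dSETD3 KO 1 at 5 of 7, the exceptions being Acp1 and Acp65Aa. The absolute difference between the control arrays had a median of 0.12 and a 90th percentile of 0.38 over all tested probes, and 4 of the 7 cuticle probes were past that percentile, with values from 0.52 for Cpr100A to 0.76 for Cpr47Ea. Between the dSETD3 KO arrays the median was 0.12 and the 90th percentile 0.50, and both Cpr47Ea probes were past it, at -0.53 and -0.75. Acp1, Acp65Aa and the Cpr47Ef probe A_09_P006386 (0.35 and -0.07) were within these limits in both genotypes, though Acp1 was not well above background on the dSETD3 KO arrays. With array 2 of each genotype taken alone the genotypes thus lay further apart for Cpr47Ea, Cpr100A and Cpr47Ef than with array 1 of each, while Acp1 and Acp65Aa differed little in this respect.

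**Figure D2:**
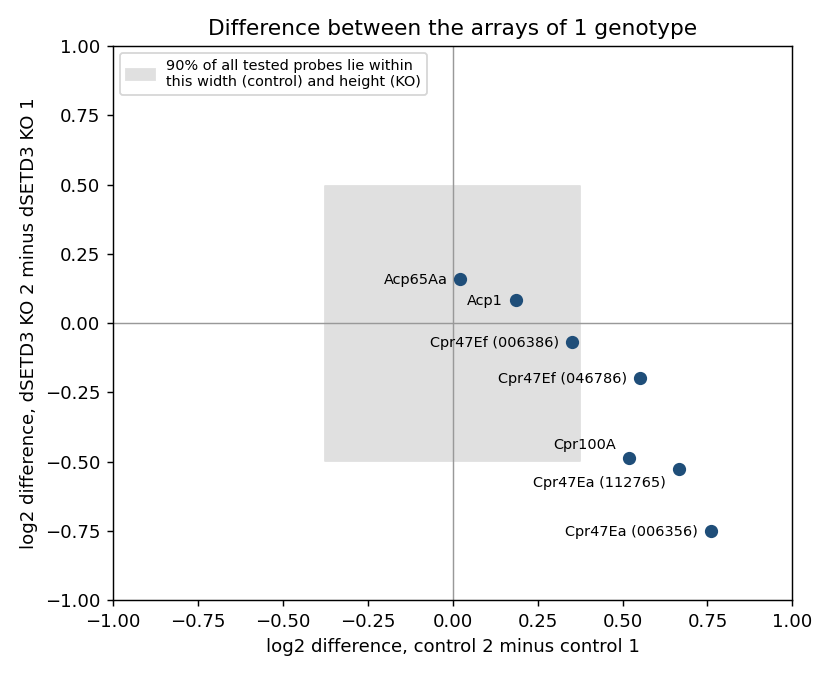
Difference between the 2 control arrays (horizontal axis) and between the 2 dSETD3 KO arrays (vertical axis) on the scaled log2 scale, 1 point for each of the 7 detected cuticle protein probes. The grey box reaches the 90th percentiles over all tested probes, 0.38 and 0.50. Acp65Aa, Acp1 and the Cpr47Ef probe A_09_P006386 lie inside it, and both Cpr47Ea probes lie outside it in the lower right.

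The change of a probe also went with its brightness on these arrays. Among tested probes split into eighths by mean brightness, the median log2 change was -0.35 in the dimmest eighth, and 0.15, 0.17 and 0.12 in the 3 brightest. The detected cuticle probes fell in the lower 5 of the 8 bins, Acp1 in the dimmest and Cpr47Ef in the fifth. The part of brightness in the changes was not tested.

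**Figure D3:**
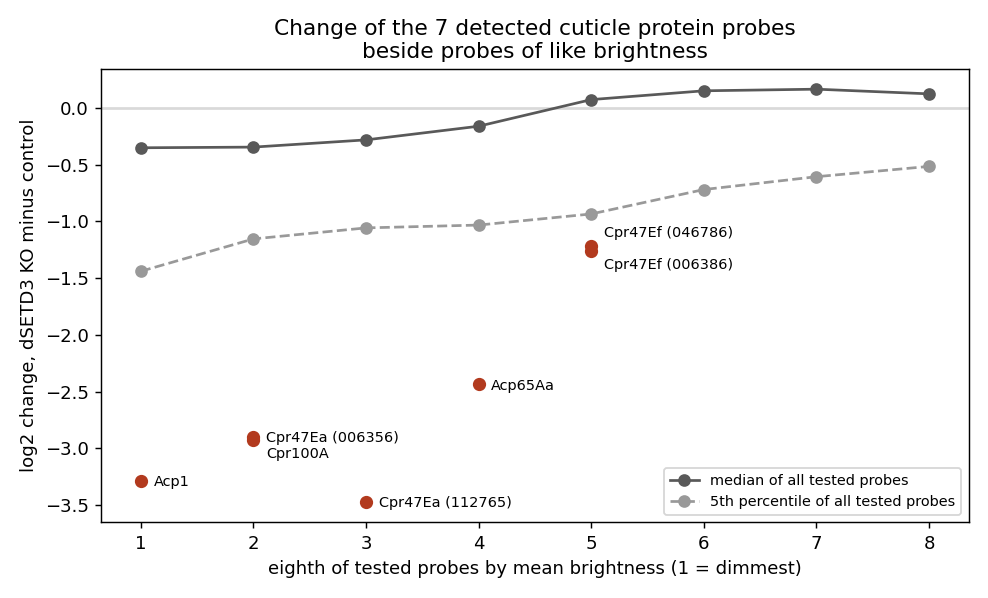
Log2 change (dSETD3 KO minus control) of the 7 detected cuticle protein probes, placed in their eighth of all tested probes by mean brightness, with the median and the 5th percentile of each eighth. The probes were selected on this contrast, and Acp1 is drawn at its measured change although it has only a bound; the 5th percentile runs from -1.44 in the dimmest to -0.52 in the brightest.

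The size of the change, though not its direction, depended on the background correction for the dim probes. With normexp correction and an offset of 50, which is added to every signal and so draws dim signals together, the log2 change was -1.08 for Acp1, -1.39 for Cpr100A, and -1.05 and -2.25 for the probes of Cpr47Ea. From the deposited table of values, which holds no background subtraction, it was -1.41 for Acp1 and -1.71 for Cpr100A, and -1.47 and -2.54 for the probes of Cpr47Ea. The brighter Acp65Aa and Cpr47Ef probes moved less, to -2.11 for Acp65Aa and to -1.32 and -1.15 for Cpr47Ef under normexp. Under each scaling and background setting, all 7 probes kept both dSETD3 KO values below both control values. That order held for 37.2% of all tested probes with the scaling used, and the share under the other settings is not given.

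**Figure D4:**
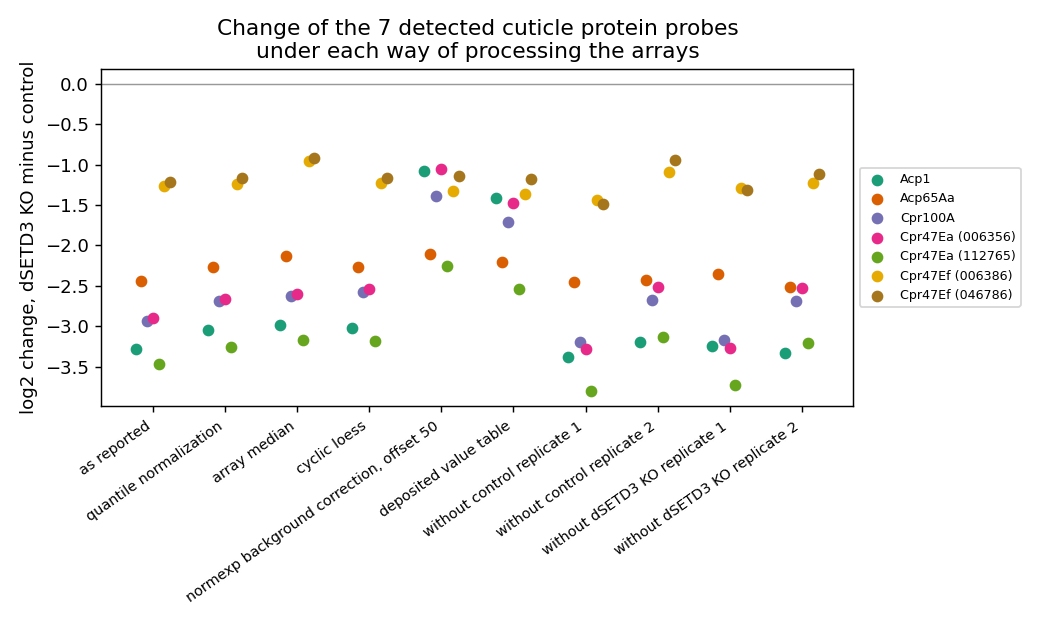
Log2 change (dSETD3 KO minus control) of the 7 detected cuticle protein probes under each way of scaling the arrays or correcting the background and with each array left out. All values lie below 0; the dim probes, such as Acp1 at -3.29 as reported and -1.08 under normexp, move most.

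Other cuticle protein genes, outside the set, were tested with limma. This list too was made with earlier results of these data known, so that its calls are not independent of them. Names for probes were taken from the part of the study's probe table given here and from RefSeq, whatever the probe's outcome, which gave 14 further cuticle protein genes with 16 probes. Of these genes, 11 lie on 2R, since the names cover mainly that arm. Of the 16 probes, 9 probes of 9 genes passed the filter, and 5 were not well above background on any array. At an adjusted p under 0.05 (limma, all tested probes) 4 of the 9 were lower and 0 higher, beside 16.6% of all tested probes that were lower and 3.8% that were higher. Of the 9 probes, 3 passed the filter only through the control arrays, among them 2 of the 4 lower ones. Those 2 were well above background on neither dSETD3 KO array, so that a lower value followed from how they passed. The third, Cpr49Ah, was well above background on dSETD3 KO 1, at 28.8 beside 28.0 on control 1. Among the 6 probes well above background on all 4 arrays, 2 were lower, Cpr49Ae and TwdlBeta. At an unadjusted p under 0.05 (limma), 4 of the 9 were lower and 0 higher. That p was reached by 9265 of all 21082 tested probes, both directions together. The median log2 change of the 9 was -0.72, against 0.02 over all tested probes. For the 6 probes well above background on all 4 arrays it was -0.67, against 0.04 over all probes so detected. The median of the 9 was -0.46 after quantile normalization, -0.40 after cyclic loess, -0.41 after median centring, -0.28 from the deposited table and -0.12 under normexp. All 9 changes were below 0 with the scaling used, but Cpr65Ax1 was above 0 after quantile normalization (0.10), cyclic loess (0.09) and median centring (0.18), as was Cpr49Ag after median centring (0.03), and Cpr49Ah was above 0 under normexp (0.06) and from the deposited table (0.0012). A probe listed under the clone name RH24125, a RefSeq synonym of the CPR gene Cpr60D, was outside the list and was not called, with 215 and 240 on the control arrays and 196 and 138 on the dSETD3 KO arrays (log2 change -0.19, adjusted p = 0.152, limma).

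Cpr49Ae, a CPR gene on 2R, fell most among them. Its signals were 1500 and 1559 on the control arrays and 144 and 110 on the dSETD3 KO arrays, all well above background. The log2 change was -3.33 (adjusted p = 0.00287, limma). Its standard error was 0.09 in the limma fit and 0.06 when computed as for the set. The difference of this change from those of Cpr47Ea and Acp1 was not tested. The study's list of changed probes holds Cpr49Ae too. It was lower with an adjusted p of 0.00177 under normexp, and of 0.0747 and 0.108 without control 1 and without control 2.

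The other 3 lower genes were dimmer or changed less. TwdlBeta, of the Tweedle family of cuticle proteins, gave 95.2 and 96.7 on the control arrays and 56.4 and 39.2 on the dSETD3 KO arrays, a log2 change of -0.75 (adjusted p = 0.0189, limma). The CPR gene Cpr49Af gave 25.5 and 29.5 against 2.79 and 5.76, at least 1.77-fold lower. Cpr50Ca, also a CPR gene, gave 22.8 and 25.2 against 4.01 and 2.73, at least 1.55-fold lower. Neither was well above background on the dSETD3 KO arrays, so that both passed the filter only through the controls, which fixed their direction. Their adjusted p of 0.0453 and 0.00335 (limma) belong to the measured log2 changes of -2.50 and -2.58, not to these bounds. Under normexp their log2 changes were only -0.18 for Cpr49Af and -0.07 for Cpr50Ca, and the calls were lost (adjusted p = 0.562 and 0.692, limma). The call of TwdlBeta was lost under normexp (adjusted p = 0.135), quantile normalization (0.0643), cyclic loess (0.0824), from the deposited table (0.0619) and without a filter on dim probes (0.0775), with a log2 change of -0.46 after quantile normalization and -0.40 after cyclic loess.

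The remaining 5 tested probes did not pass. Cpr65Ax1, a CPR gene of the same chromosome arm as Acp65Aa, gave 305 and 320 on the control arrays and 304 and 186 on the dSETD3 KO arrays (log2 change -0.12, adjusted p = 0.431, limma). Cpr49Ag gave 543 and 667 against 448 and 378 (log2 change -0.27, adjusted p = 0.185), although it neighbours Cpr49Af and, after that, Cpr49Ae on 2R. Cpr50Cb, Cpr51A and Cpr49Ah had log2 changes of -0.72, -0.63 and -0.46 with adjusted p between 0.164 and 0.277. Single arrays decided the size of these changes. Cpr51A was at -1.21 without dSETD3 KO 1 (adjusted p = 0.00593, limma) and at -0.05 without dSETD3 KO 2, Cpr49Ah at -0.77 (adjusted p = 0.0353) and -0.15, and Cpr50Cb at -1.07 without control 1 and -0.36 without control 2. Signals at background were found for Cpr49Ac, Cpr49Ad, Cpr65Ay and dyl, while resilin, an elastic cuticle protein, gave 15.2 and 9.73 against 2.92 and 2.53 and was well above background on control 1 alone. The Cpr49A genes on 2R thus included called, uncalled and undetected genes.

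**Figure D5:**
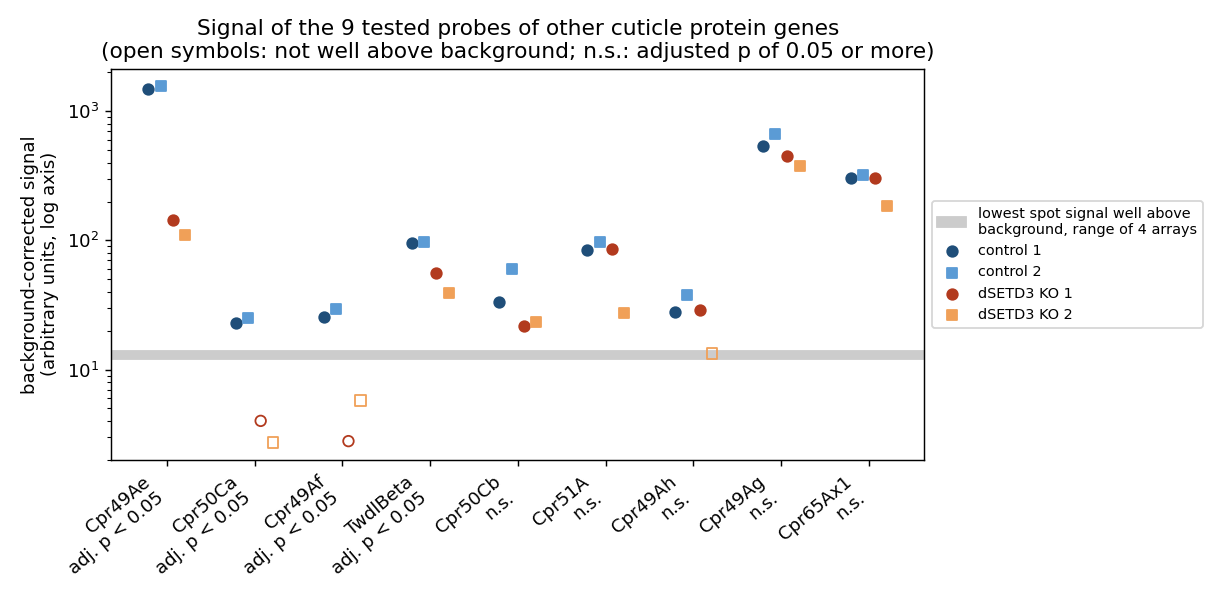
Background-corrected signal (arbitrary units, log axis) on each array of the 9 tested probes of cuticle protein genes outside the set, ordered by log2 change from Cpr49Ae at -3.33 to Cpr65Ax1 at -0.12. Filled points are well above background, the grey band spans 12.2 to 13.9, and the 4 probes marked with an adjusted p under 0.05 (limma) are on the left.

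Genes of chitin binding and modification were tested apart from the structural proteins. With names taken whatever the outcome there were 4 genes with 5 probes, obst-H, Idgf5, Cda9 and y, of which 3 probes passed the filter. The pigmentation gene y was not well above background and was not tested. None of the 3 was called in either direction (limma, adjusted p from 0.124 to 0.418), and 0 had an unadjusted p under 0.05. Over all 21082 tested probes 16.6% were called lower and 3.8% higher, and 9265 had an unadjusted p under 0.05. The log2 changes were -0.36 for obst-H, a chitin-binding protein gene, 0.22 for Idgf5, of the chitinase-like growth factors, and 0.42 for Cda9, a chitin deacetylase gene. The dSETD3 KO arrays differed for Cda9, at 282 and 99.0, and its change was -0.09 without dSETD3 KO 1 and 0.93 without dSETD3 KO 2, where it was called higher (adjusted p = 0.0218, limma). Further genes of both kinds have a name here only because the study listed them as changed, and carry no test. The chitin deacetylase genes serp and verm had log2 changes of -1.28 and, over the 4 detected verm probes, of -1.45 to -0.97, the chitin-binding obst-B of -1.68 and the CPR gene Cpr62Bb of -1.23.

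Markers of other tissues moved between the genotypes as well. Over all tested probes 16.6% were called lower and 3.8% higher, and the counts below hold for the scaling used. Of 47 tested probes of muscle genes, 39 were lower and 0 higher after dSETD3 loss (median log2 change -1.05), and the summed signal of all 49 muscle probes was 667219 and 751291 on the control arrays and 353738 and 241674 on the dSETD3 KO arrays. Of 12 tested probes of follicle cell genes for the eggshell, 11 were higher, with a median of 2.91 and summed signals of 92930 and 126759 against 354119 and 273819. Of 10 tested probes of photoreceptor genes, 7 were lower, with a median of -1.11 and summed signals of 27758 and 33100 against 10011 and 7327. Many of these names (29 of the 49 muscle probes, 6 of 12 and 9 of 10) come only from the study's list of changed probes, which fixed their direction. Among probes named whatever the outcome, 13 of 19 muscle probes were lower (median log2 change -0.76), 6 of 6 follicle cell probes were higher (median 2.25), and the 1 photoreceptor probe, of trp, was lower (-1.14). The yolk protein genes Yp1 and Yp3, made in the fat body of females, had log2 changes of 0.04 and 0.30 and were not called, and to, which is also made in fat body, had a change of -2.20 and a name only from that list. Markers of the male accessory gland, Acp53C14a, Acp53C14b and Acp53C14c, were at background on every array, with a highest signal of 10.8. The part of these tissues in the cuticle gene values was not tested.

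Across the 4 arrays, the 5 named transcripts whose pattern lay nearest to that of Acp65Aa were lncRNA:CR43837, CG13026, CG11413, CG32850 and trpl, an ion channel gene of photoreceptors. Likeness was the Euclidean distance between log2 values centred on each probe's own mean, over 4 arrays and 1897 named probes, and was 0.14 for the first and 0.21 for trpl. Each transcript was entered with its nearest probe. For lncRNA:CR43837 the signals were 1070 and 1117 on the control arrays and 188 and 165 on the dSETD3 KO arrays. For trpl they were 8988 and 10639 against 1555 and 1127 at that probe (log2 change -2.61). The further probes of the same trpl transcript changed less, at -0.18, -0.34 and -0.83, and were not called. The names of all but the first come from the study's list of changed probes, so that the order describes the named probes only.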

How the data were processed

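The authors hybridised total RNA of whole virgin females to Agilent 1-colour arrays and deposited Feature Extraction output (version 10.7.3.1), whose intensity values the software had corrected for background, without normalization between arrays. A second deposited file gives a single intensity for each probe on each array, which for the 31962 probes with 1 or 2 spots is the mean of the median spot intensities (tolerance 0.01) with no background subtracted. The 200 probes with 10 spots were not checked. In the output for control 1 the corrected intensities are rounded to at most 3 significant digits.

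After removal of control spots and of outlier spots (45 to 73 an array), spots of the same probe were averaged as log2 signals and each array was scaled by subtracting its 75th percentile. No spot was saturated. Probes called well above background in both replicates of either genotype (21082) were fitted on genotype alone with lmFit and eBayes (limma 3.58.1, R 4.3.3), and p-values were adjusted by Benjamini-Hochberg. The step was tested on simulated data. Python 3.11.15 with pandas 2.3.3 and matplotlib 3.10.9 made the tables and plots. For probes not well above background in 1 genotype, the dim side was raised, per array, to the lowest flagged signal.

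The members and gene lists were chosen with earlier results of these data known. Names came from 1992 rows of the part of the study's probe table given here, of which 1557 gave a symbol, from 235 rows of its list of changed probes, and from RefSeq (Drosophila melanogaster Release 6). Named in the text are all 8 members, the called members of each list and those in counts of 5 or fewer, the brightest or undetected markers, and the 5 nearest patterns. CG13223, the clone probes and the list members that were not called were chosen after their values were seen. Alternatives were quantile, cyclic loess and array-median scaling, normexp with an offset of 50 on median intensities, the deposited table, other filters, each array left out, a replicate block and the methods' t-test. Only 2 arrays per genotype limit the precision.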

Additional observations from a re-analysis of the deposited data

How the results depend on the processing

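All 7 detected probes of the selected cuticle genes kept both dSETD3 KO values below both control values under every scaling and background alternative, and leaving out an array cannot change this count. The same order held for 37.2% of all tested probes with the scaling used, and the share under the alternatives is not given. Because the genes were selected on this contrast, nothing is read from the count. The count of other cuticle protein probes called lower (4) was between 3 and 4 under quantile, cyclic loess and array-median scaling. It was 1 under normexp, beside 1418 of 21082 called lower over all tested probes, and 1 from the deposited table, beside 2448. It was 2 without a filter on dim probes (26 of 32152 overall probes). Among probes well above background on all 4 arrays it was 2 (3650 of 19838). The methods' t-test gave 3 at an unadjusted p under 0.05, 2 of these at least 2-fold lower, beside 6404 over all tested probes in both directions. After adjustment of the t-test it was 0, beside 2 over all tested probes. With 1 array left out it ranged from 0 to 6, with 0 without control 1 and 0 without control 2, where limma made 0 adjusted calls over all probes, although 7183 and 4817 probes had an unadjusted p under 0.05. It was 6 without dSETD3 KO 1. A lone array is assumed there to vary like the other genotype. For chitin genes the count called higher (0) was 1 after centring on the array median, where 8296 of 21082 tested probes were called higher. The log2 change of Cda9 was 0.93 without dSETD3 KO 2 and -0.09 without dSETD3 KO 1. Arrays with the same replicate number share only that number. Their deviations from the genotype means correlated at r = -0.21. With the replicate number as a block 4 other cuticle probes were lower, beside 2509 of 21082 over all tested probes. They were not the same ones, since Cpr49Af lost its call (adjusted p = 0.0551, limma) and Cpr50Cb gained one (adjusted p = 0.0434). With crossed pairing, chosen after seeing the data, 3 were lower, beside 1400 of 21082 over all tested probes.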
